A study of Homo sapiens with 6 samples.

Results

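Expression of 10 genes of iron handling and heme breakdown was measured in A2780 cells, an ovarian cancer cell line, by RNA sequencing: TF, TFRC, STEAP3, SLC11A2, IREB2, FTH1, FTL, SLC40A1, HMOX1 and HMOX2. They were chosen by name, as the rows of the deposited tables that carry these 10 symbols, out of 44591 genes listed. The study asked which pathways respond to collapsin response mediator protein-2 (CRMP2), a protein that cancer associated fibroblasts release. The recombinant human protein (r-CRMP2) was given to 3 cultures at 40 ng/ml, and RNA was compared at 48 h with that of 3 untreated cultures, all wild type and all grown in DMEM with fetal bovine serum, which itself carries bovine transferrin. No vehicle control is named, and the labels do not say whether the cultures were independent, so that the p-values below measure only the spread between these libraries.

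Iron reaches most cells as transferrin, which binds the transferrin receptor at the surface and is taken into endosomes. There STEAP3 reduces the iron and SLC11A2 (DMT1) carries it into the cytosol, where ferritin, a shell of FTH1 and FTL subunits, stores it. SLC40A1 (ferroportin) exports it, and heme oxygenase returns iron from heme. When iron is scarce, iron regulatory proteins bind short hairpins, the iron-responsive elements (IREs), in messenger RNAs: binding near the 5′ end blocks translation, as in the ferritin messages, and binding in the 3′ untranslated region protects the message from decay, as in TFRC.

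These hairpins are shown because the members differ in where they carry them. GENCODE v29 transcripts (GRCh38) were searched for an unpaired C, then 5 bases, then the loop CAGTG with A, C or T as its last base, then 5 bases that pair with the first 5 with at most 1 mismatch. G with T counted as a pair. In the sequences, the 6 loop bases are in capitals.
FTH1, 5′ UTR, chr11:61967575-61967602, minus strand: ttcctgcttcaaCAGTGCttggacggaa
FTL, 5′ UTR, chr19:48965335-48965362, plus strand: ctcttgcttcaaCAGTGTttggacggaa
SLC40A1, 5′ UTR, chr2:189580662-189580689, minus strand: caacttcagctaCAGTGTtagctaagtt
TFRC, 3′ UTR, chr3:196050980-196051007, minus strand: aattatcggaagCAGTGCcttccataat
TFRC, 3′ UTR, chr3:196050576-196050603, minus strand: cattatcgggagCAGTGTcttccataat
TFRC, 3′ UTR, chr3:196050511-196050538, minus strand: ctgtatcggagaCAGTGAtctccatatg
TFRC, 3′ UTR, chr3:196050464-196050491, minus strand: aattatcgggaaCAGTGTttcccataat
SLC11A2, 3′ UTR, chr12:50988270-50988297, minus strand: agccatcagagcCAGTGTgtttctatgg
The hairpins of FTH1 and FTL were identical at 25 of 28 bases. TFRC held 4 such hairpins, all in its 3′ UTR. Of the hairpins shown, only that of SLC11A2 held a mismatch. The pattern is not rare, since 1.03% of 19669 protein-coding genes held a match in a 5′ UTR and 3.42% in a 3′ UTR. TF and IREB2 also held a match in the 3′ UTR of 1 transcript each, and a match describes letters only.

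The libraries held between 21888530 and 25711353 counts. Mitochondrial genome transcripts took 6.19% to 6.59% of the counts in untreated libraries and 3.76% to 4.10% in r-CRMP2 libraries. r-CRMP2 replicate 3 listed 22438 genes with a count, against 25152 to 26302 in the other libraries. Values are given as CPM (counts scaled to a common library total) after TMM scaling, which corrects for differences in library makeup, and genes are compared with each other only as the deposited TPM, which is per gene length. Compared with TMM, library size alone lowered the median log2 fold change of all genes from -0.03 to -0.34, so changes smaller than this gap depend on the scaling. Erythroid markers were near 0, with summed levels of 0.183 to 0.503 CPM over 7 genes in untreated and 0.0435 to 0.421 CPM in r-CRMP2 libraries. The 6 hepatocyte markers summed to 0.144 to 0.285 CPM and 0.0435 to 0.202 CPM. The epithelial list was led by KRT8 and KRT18, while CDH1 was at most trace level (0.125 CPM in untreated cells). Of the ovarian epithelial list, MSLN stood at 245 CPM in untreated and 358 CPM in r-CRMP2 cells on average. MUC16 went the other way, from 42.7 to 33.2 CPM (log2 fold change -0.36, edgeR adjusted p = 0.0133). LHX9 also fell, from 1.28 to 0.559 CPM (log2 fold change -1.22, edgeR adjusted p = 0.0115). PAX8 stood at 4.06 and 3.74 CPM (edgeR adjusted p = 0.606), and WT1 and EMX2 were near 0. The list summed to 265 to 313 CPM in untreated and 377 to 417 CPM in r-CRMP2 libraries, and only MSLN rose. Of the fibroblast list, 7 of 8 genes exceeded a mean of 1 CPM, and the sum was 573 to 644 CPM in untreated and 503 to 525 CPM in r-CRMP2 libraries, most of it COL1A1. The list was split in direction. COL1A1 and PDGFRB fell (log2 fold change -0.41 each), while COL1A2, LUM and THY1 rose (0.35, 0.53 and 0.17), each at an edgeR adjusted p under 0.05. COL3A1 and DCN did not pass that threshold, and FAP was not tested. The macrophage list summed to 23.6 to 30.2 CPM in untreated and 76.7 to 82.6 CPM in r-CRMP2 libraries. Most of it was CD68, a lysosomal gene, at 23.1 CPM in untreated and 74.3 CPM in r-CRMP2 cells on average. CSF1R stood at 3.19 and 4.41 CPM (edgeR adjusted p = 0.0703). CD14 went the other way, from 0.458 to 0.0613 CPM, and was not tested. PTPRC, the pan-leukocyte marker, stayed at or below 0.113 CPM on average in either group, and MRC1 and LYZ were near 0. The part of these list changes in the results was not tested.

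Of the 10 genes, 8 had enough counts to be tested. With r-CRMP2, 5 were upregulated (TFRC, STEAP3, FTH1, FTL and HMOX1), 2 were downregulated (IREB2 and HMOX2) and SLC11A2 was not called, at an adjusted p-value threshold of 0.05 in edgeR's quasi-likelihood test. Of all 16222 genes tested, 28.2% were called higher and 30.1% lower, so that a call alone is common in this comparison. In bulk RNA, a change in the number of cells that express a gene and a change in the level per cell cannot be told apart. These 8 genes had a median log2 fold change of 0.36, against -0.03 for all genes tested. One member, FTH1, also passed the log2 fold change threshold of 1, which 5.12% of all genes tested did in the upward direction. No member was downregulated past both thresholds by edgeR, none at an unadjusted p-value under 0.05 with the same fold threshold and none by DESeq2, against 8.86% of all genes. With library size alone, 3 members were called higher (TFRC, STEAP3 and FTH1), and FTH1 fell below the fold threshold with a log2 fold change of 0.77.

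**Figure D1:**
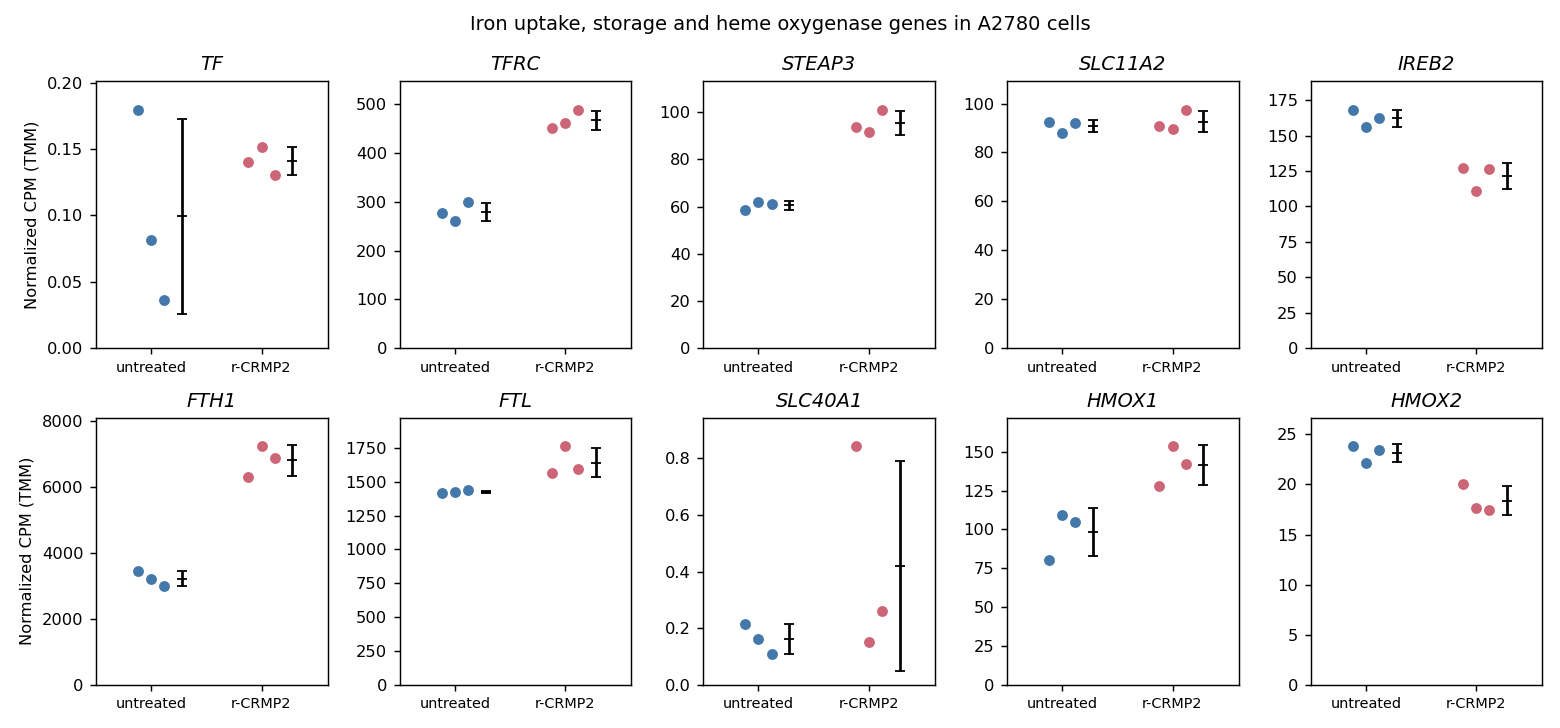
Normalized CPM (TMM scaling, linear axis from 0, a separate axis for each gene) of the 10 genes in the 3 untreated (blue) and 3 r-CRMP2 (red) libraries, in replicate order from left to right. Black marks give the mean and SD of each group, and the groups do not overlap for TFRC, STEAP3, IREB2, FTH1, FTL, HMOX1 and HMOX2.

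Among the uptake genes, the receptor and the endosomal reductase rose together, while transferrin itself was barely transcribed and the endosomal importer did not pass the test. TF (chromosome 3, 133464977 to 133497850 in hg19) encodes transferrin, which the liver normally secretes. Its row held 5, 2 and 1 counts in untreated and 3, 3 and 3 counts in r-CRMP2 libraries, so no difference was detectable at this depth and it was not tested.

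TFRC (chromosome 3, 195776155 to 195809032 in hg19), the transferrin receptor, stood at 276.6, 261 and 299 CPM in untreated replicates 1, 2 and 3. It stood at 451, 461 and 489 CPM in r-CRMP2 replicates 1, 2 and 3. All treated libraries lay above all untreated ones, as 7 of the 8 tested members did in one direction or the other and as 64.2% of all genes tested did. The log2 fold change was 0.74 (standard error, SE, 0.07; edgeR adjusted p = 1.39e-08), a 1.67-fold rise, and with library size alone it was 0.43. The promoter of TFRC is shown because the study turns on HIF-1, which binds ACGTG. In capitals is the motif within the 250 bases before the RefSeq start (chr3:196082091-196082340, minus strand, GRCh38.p14).
TFRC: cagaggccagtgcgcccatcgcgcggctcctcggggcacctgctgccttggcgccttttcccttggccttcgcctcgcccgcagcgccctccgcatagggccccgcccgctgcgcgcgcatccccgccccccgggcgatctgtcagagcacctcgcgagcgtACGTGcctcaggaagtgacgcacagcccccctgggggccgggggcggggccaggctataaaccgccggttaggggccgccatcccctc
Of 8 members with a RefSeq promoter entry, 3 held ACGTG on either strand in this window (TFRC, FTL and HMOX2, the last at 1 of its 2 listed starts). Counted by single promoter rather than by gene, 18.5% of all 35116 promoters did. Some members, such as SLC11A2 and IREB2, have more than 1 listed start. The member and background counts are therefore not alike, and no excess among the members can be read from them. FTH1 and HMOX1 had no entry and were not searched. Only ACGTG was searched, so binding sites spelled otherwise were not counted.

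STEAP3 (chromosome 2, 119981384 to 120023228 in hg19), the ferrireductase of the transferrin endosome, measured 58.4, 61.9 and 61.2 CPM in the untreated libraries. It measured 93.7, 91.4 and 101 CPM in the r-CRMP2 libraries, again without overlap. Its log2 fold change was 0.66 (SE 0.05, edgeR adjusted p = 6.61e-08) and 0.35 with library size alone. STEAP3-AS1, an antisense RNA over the same locus, also rose (log2 fold change 0.84, edgeR adjusted p = 3.70e-05). It held 8.63% as many counts as STEAP3, and strand use in the counting is not given in the sources used here, so reads of the pair cannot be told apart.

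SLC11A2 (chromosome 12, 51373566 to 51422058 in hg19), which moves ferrous iron out of the endosome, stood at 92.5, 88.1 and 91.9 CPM in untreated libraries. The r-CRMP2 libraries gave 90.9, 89.5 and 97.5 CPM, inside and around the same range. The difference was a log2 fold change of 0.03 (SE 0.04, edgeR adjusted p = 0.722), and with library size alone it was -0.28 and past the threshold, so its direction rests on the scaling. Relative to the median gene it was 0.05 above under either scaling. In contrast, TFRC and STEAP3 exceeded the median gene by 0.77 and 0.68 on the log2 scale under both scalings.

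In the ferritin genes, the heavy subunit about doubled and the light subunit moved little. FTH1 (chromosome 11, 61731757 to 61735132 in hg19), whose product oxidizes iron for storage, measured 3449, 3218 and 3000 CPM in untreated libraries. It measured 6310, 7231 and 6886 CPM in r-CRMP2 libraries. The lowest treated library thus exceeded the highest untreated one by a wide margin. The log2 fold change was 1.08 (SE 0.08, edgeR adjusted p = 3.72e-10), or 2.11-fold. FTH1 was among the most abundant messages of these cells: by TPM it ranked between 9 and 12 of all genes in untreated libraries and between 4 and 5 in r-CRMP2 libraries. Its share of all counts went from 0.358% ± 0.0208 (mean ± SD, n = 3) to 0.610% ± 0.0272 (mean ± SD, n = 3).

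FTL (chromosome 19, 49468566 to 49470136 in hg19), the subunit that helps the iron core form, measured 1418, 1423 and 1436 CPM in untreated libraries. The r-CRMP2 libraries gave 1568, 1762 and 1596 CPM, a small shift without overlap. The difference was a log2 fold change of 0.20 (SE 0.05, edgeR adjusted p = 0.0105). It was -0.11 with library size alone, and without untreated replicate 2 it was 0.20 and no longer past the threshold. On the deposited TPM scale, which has no TMM correction, FTL went from 3989 ± 74.5 to 3660 ± 70.3 (mean ± SD, n = 3 each). Relative to the median gene, FTL was 0.23 higher on the log2 scale under either scaling.

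Both ferritin genes have many processed copies in the genome, to which their reads could be assigned. The tables list 21 FTH1 and 10 FTL pseudogenes, which together held 964 and 13 counts over the 6 libraries, or 0.139% and 0.00595% of the counts of their parent genes. The most counted were FTH1P8, FTH1P2 and FTH1P23, with 296, 258 and 97 counts. Adding the pseudogenes to the parent genes left the log2 fold changes at 1.08 and 0.20. How reads that match several copies were treated is not given in the sources used here.

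**Figure D2:**
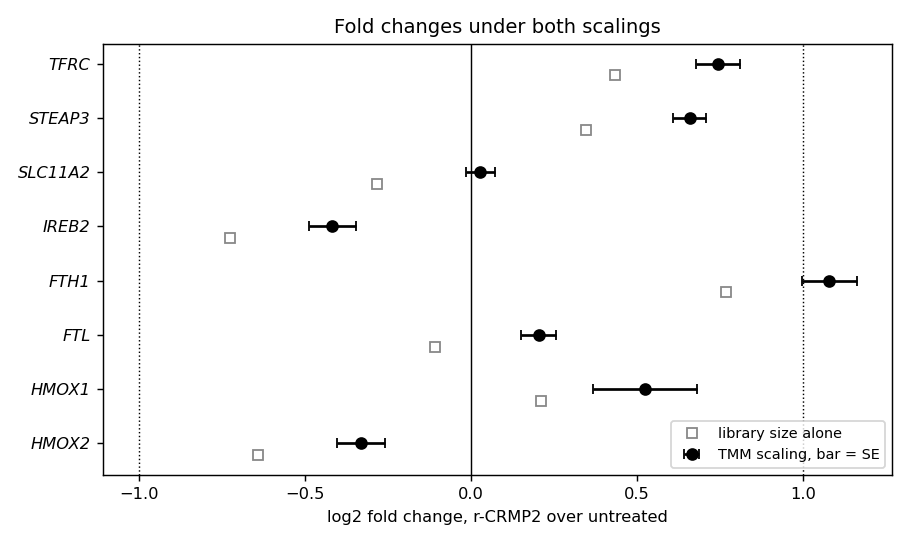
Log2 fold changes of the 8 genes tested, r-CRMP2 over untreated, with TMM scaling (filled circles, bars show the standard error, n = 3 in each group) and with library size alone (open squares). Dotted lines mark the fold threshold of 1 in either direction. The open squares lie to the left by about the same distance for every gene, and FTL and SLC11A2 cross 0.

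A ratio of 2 genes within a library does not depend on how libraries are scaled. The FTH1 to FTL ratio of counts was 2.43, 2.26 and 2.09 in untreated replicates 1, 2 and 3. It was 4.02, 4.10 and 4.31 in r-CRMP2 replicates 1, 2 and 3, so the ratio was 1.84-fold higher without overlap (log2 difference 0.88, SE 0.07, exact permutation p = 0.1, two-sided, and 0.1 after adjustment over 3 ratios). With 3 libraries against 3, 0.1 is the smallest p-value this test can give. Per gene length, the deposited TPM put FTH1 at 1.602 ± 0.121 times FTL in untreated and 2.94 ± 0.106 times FTL in r-CRMP2 libraries (mean ± SD, n = 3 each).

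The TFRC to FTH1 ratio of counts, receptor over storage, was 0.0802, 0.0813 and 0.0996 in untreated libraries. It was 0.0715, 0.0638 and 0.0710 in r-CRMP2 libraries. Both genes rose, and the ratio was lower in all 3 treated libraries (log2 difference -0.33, SE 0.11, exact permutation p = 0.1, adjusted p = 0.1 over 3 ratios).

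SLC40A1 (chromosome 2, 190425316 to 190445537 in hg19), the only known iron exporter of mammalian cells, was close to silent. Its row held 6, 4 and 3 counts in untreated libraries and 18, 3 and 6 counts in r-CRMP2 libraries. The higher value of r-CRMP2 replicate 1 was not shared by the other treated libraries, and the gene did not pass the filter on low counts.

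IREB2 (chromosome 15, 78730518 to 78793798 in hg19) encodes iron regulatory protein 2, which binds the hairpins shown above and is itself degraded when iron is plentiful. It measured 168, 156 and 163 CPM in untreated libraries. In r-CRMP2 libraries it measured 127, 111 and 126 CPM, below every untreated library. The log2 fold change was -0.42 (SE 0.07, edgeR adjusted p = 2.50e-05), and -0.73 with library size alone. Its partners did not pass the test. ACO1, iron regulatory protein 1, had a log2 fold change of 0.06 (SE 0.06, edgeR adjusted p = 0.542). FBXL5, the ligase subunit that marks iron regulatory protein 2 for degradation, had one of -0.02 (SE 0.09, edgeR adjusted p = 0.867). With library size alone both were called lower (-0.26 and -0.33), where the median gene stood at -0.34.

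Of the heme oxygenases, the inducible HMOX1 rose and the constitutive HMOX2 fell. HMOX1 (chromosome 22, 35777060 to 35790207 in hg19) measured 80.6, 109 and 105 CPM in untreated libraries. It measured 128, 153 and 142 CPM in r-CRMP2 libraries. The groups did not overlap, but untreated replicate 1 stood below the other untreated libraries. The difference was a log2 fold change of 0.52 (SE 0.16, edgeR adjusted p = 7.16e-05), 0.40 without untreated replicate 1, and 0.21 and not past the threshold with library size alone.

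HMOX2 (chromosome 16, 4524704 to 4560348 in hg19) measured 23.8, 22.2 and 23.5 CPM in untreated libraries. It measured 20.1, 17.6 and 17.5 CPM in r-CRMP2 libraries, each below the untreated range. The log2 fold change was -0.33 (SE 0.07, edgeR adjusted p = 0.00311) and -0.64 with library size alone. HMOX2 overlaps NMRAL1 by 193 bases on the opposite strand. NMRAL1 held 206.6% as many counts and also fell (log2 fold change -0.49, edgeR adjusted p = 6.57e-06), so the part of its reads in the count of HMOX2 was not tested.

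The HMOX1 to HMOX2 ratio of counts was 3.39, 4.92 and 4.47 in untreated libraries and 6.37, 8.70 and 8.15 in r-CRMP2 libraries. The ratio was 1.82-fold higher with r-CRMP2 (log2 difference 0.87, SE 0.21, exact permutation p = 0.1, adjusted p = 0.1 over 3 ratios). Per gene length, HMOX1 was 7.55 ± 1.40 times HMOX2 in untreated and 13.7 ± 2.16 times HMOX2 in r-CRMP2 libraries by TPM (mean ± SD, n = 3 each). The inducible enzyme was thus the more abundant message in every library.

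**Figure D3:**
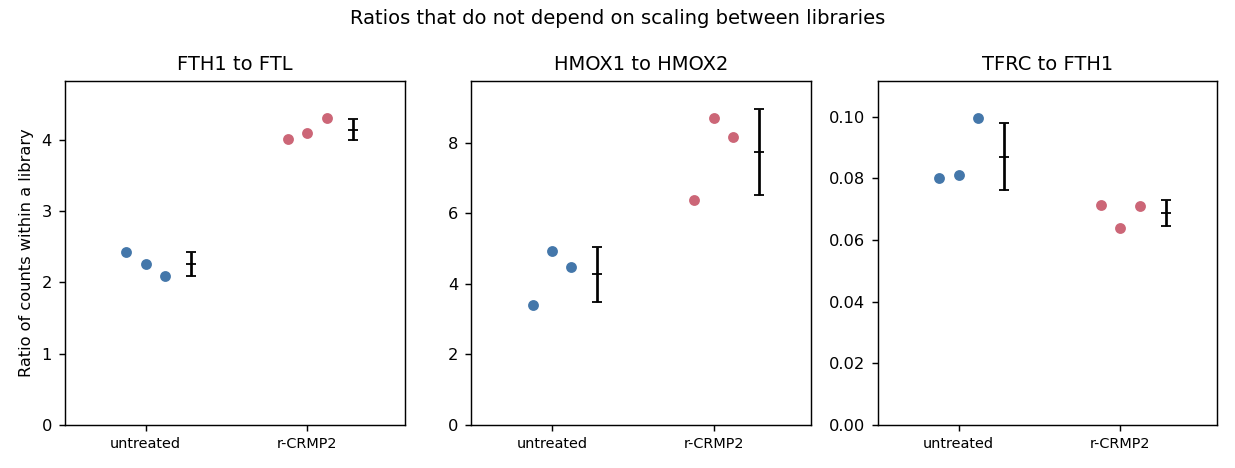
Ratios of counts of FTH1 to FTL, HMOX1 to HMOX2 and TFRC to FTH1 within each of the 3 untreated (blue) and 3 r-CRMP2 (red) libraries, on linear axes from 0, with mean and SD in black. The first 2 ratios are higher in every treated library and the third is lower.

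By TPM, which is per gene length, the order in untreated cells was FTH1 (6386 ± 382), FTL (3989 ± 74.5), HMOX1 (151 ± 25.6), TFRC (128 ± 8.58), IREB2 (54.6 ± 1.26), SLC11A2 (32.5 ± 0.552), STEAP3 (32.2 ± 1.47) and HMOX2 (20.02 ± 0.521), with SD and n = 3 for each. HMOX1 and TFRC were within their spread of each other, and so were SLC11A2 and STEAP3. In r-CRMP2 libraries, HMOX1 (172 ± 8.29) and TFRC (172 ± 10.2) were again indistinguishable. STEAP3 (40.5 ± 3.31) stood above IREB2 (32.7 ± 3.89), which reversed their order in untreated cells, and SLC11A2 (26.5 ± 1.98) and HMOX2 (12.7 ± 1.51) followed.

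A list of 71 further genes of iron and heme metabolism, ordered by role, placed the members in context. Of these, 58 were tested, 14 rose and 21 fell at the adjusted p-value threshold, against 28.2% and 30.1% of all genes tested, and their median log2 fold change was -0.07. With library size alone, 7 rose and 37 fell. Past both thresholds, 3 rose (BACH1, EPAS1 and CP) and 3 fell (SCARA5, SLC46A1 and STEAP4). With library size alone none of the 3 rising genes passed the fold threshold. Without r-CRMP2 replicate 2, SCARA5 was the only one of the 3 falling genes past it (log2 fold changes of -0.97 for STEAP4 and -0.99 for SLC46A1). SLC46A1 was at -0.97 without r-CRMP2 replicate 3, and CP at 0.97 without untreated replicate 2.

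BACH1, a heme-sensing repressor of HMOX1 and of the ferritin genes, went from 44.3 ± 2.85 to 103 ± 8.41 CPM (mean ± SD, n = 3 each). Its log2 fold change was 1.22 (SE 0.09, edgeR adjusted p = 8.25e-11). NFE2L2 (NRF2), the activator that competes with BACH1 at the same sites, had a log2 fold change of 0.23 (SE 0.04, edgeR adjusted p = 0.00416), which turned to -0.08 with library size alone. Messages of both the repressor and the activator were thus higher under TMM scaling, BACH1 by far the more. The enzymes that act after heme oxygenase, BLVRA and BLVRB, did not pass the test with TMM scaling (log2 fold changes -0.02 and 0.09), and both were called lower with library size alone (-0.33 and -0.22). SLC48A1, a heme transporter of endosomes and lysosomes, fell by 0.64 on the log2 scale (SE 0.03, edgeR adjusted p = 7.97e-07).

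EPAS1, the HIF-2α subunit, whose message is known to carry an IRE, rose from 156 ± 15.4 to 330.7 ± 13.0 CPM (mean ± SD, n = 3 each), a log2 fold change of 1.08 (edgeR adjusted p = 2.68e-10). The hairpin search above gave no match in the untranslated regions of EPAS1, so it does not find every known IRE. EPAS1 belongs to a group of 6 genes, the iron regulatory protein system and other IRE-bearing messages, all tested. In this group only EPAS1 was called higher and 2 genes were called lower, against 28.2% and 30.1% of all genes tested. CP, the secreted ferroxidase ceruloplasmin, rose from a low 3.85 ± 0.481 to 7.92 ± 0.537 CPM (mean ± SD, n = 3 each), a log2 fold change of 1.04 (edgeR adjusted p = 6.46e-06). NCOA4, the receptor that delivers ferritin to lysosomes, stood at 169 ± 5.86 and 172 ± 7.40 CPM (mean ± SD, n = 3 each) and did not pass the test with TMM scaling (log2 fold change 0.03), and was called lower with library size alone (-0.28). The iron chaperone PCBP2, which loads ferritin, had a log2 fold change of 0.47. PCBP2, SLC39A14, HFE, SLC25A37 and SLC25A28 are named as examples chosen after their values were seen.

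In the other uptake genes, 8 of 13 were tested, of which 2 rose and 4 fell. Here and in the groups below, such counts are read against the 28.2% of all genes tested that rose and the 30.1% that fell. STEAP4, a metalloreductase related to STEAP3, fell from 274.5 ± 8.37 to 132 ± 12.5 CPM (mean ± SD, n = 3 each), the opposite of STEAP3 (log2 fold change -1.06, edgeR adjusted p = 2.87e-10). SCARA5, a receptor for ferritin, fell from 3.86 ± 0.217 to 1.46 ± 0.177 CPM (mean ± SD, n = 3 each), a log2 fold change of -1.40. SLC39A14, an importer of non-transferrin iron, rose by 0.59 on the log2 scale (edgeR adjusted p = 2.22e-07). HFE, a partner of the transferrin receptor, fell by 0.52 on the log2 scale.

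Of the 19 genes of mitochondrial iron and iron-sulfur cluster assembly, all were tested, 4 rose and 7 fell. The 2 mitochondrial iron importers went in opposite directions. SLC25A37 (mitoferrin-1) had a log2 fold change of 0.92 (edgeR adjusted p = 1.52e-09) and SLC25A28 (mitoferrin-2) one of -0.52 (edgeR adjusted p = 0.000331). In heme synthesis, 8 of 9 genes were tested, 1 rose and 4 fell. SLC46A1, known as a folate transporter and a low-affinity carrier of heme, fell from 33.5 ± 1.32 to 15.9 ± 3.23 CPM (mean ± SD, n = 3 each). Its log2 fold change was -1.07 (edgeR adjusted p = 7.45e-08).

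**Figure D4:**
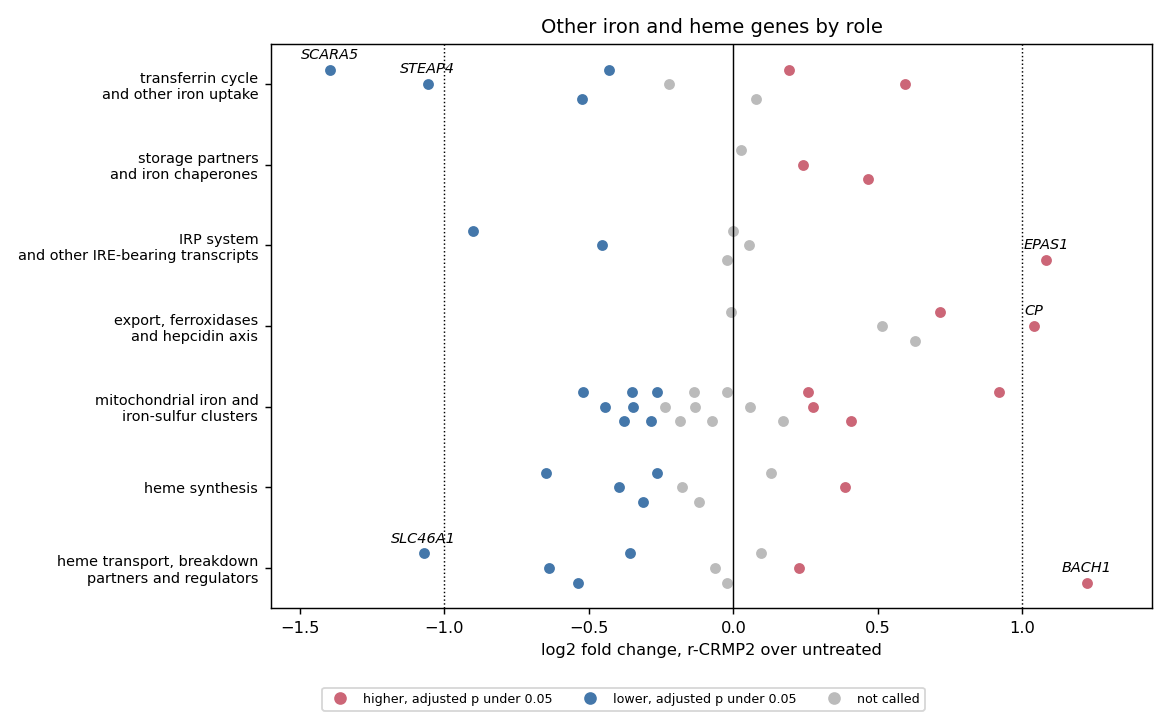
Log2 fold changes, r-CRMP2 over untreated (TMM scaling), of the 58 tested genes of iron and heme metabolism other than the members, in rows by role. Each point is a gene, red if higher and blue if lower at the adjusted p-value threshold and gray if not called, and the 6 named genes lie past the dotted fold threshold of 1 in either direction.

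As a description of FTH1, the member with the largest change, the 5 genes whose log2 CPM followed it most closely over the 6 libraries were UBXN6, ALDOA, P4HB, GAPDH and XAB2, with Pearson correlations between 0.9996 and 0.9997. These libraries form 2 groups, and 1023 of the 5510 genes compared had a correlation above 0.98 with FTH1, so a close likeness was common. The log2 fold changes of the 5 genes ranged from 0.41 (XAB2) to 1.36 (GAPDH), on both sides of the 1.08 of FTH1.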

How the data were processed

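RNA of 6 A2780 libraries was enriched for poly(A), fragmented and sequenced in paired ends on an Illumina instrument by the authors, with libraries from the NEBNext Ultra RNA kit, which does not mark strand in its standard form. The submitters' processing notes name FastQC, HISAT2, DESeq2 and the build hg19, without versions or roles, and the study's methods used FastQC to inspect read quality. The counting tool, annotation and strand use are not given in the sources used here. The authors deposited raw read counts per gene and TPM values (counts over gene length, scaled per library), and the TPM followed from the counts within 4.72e-06.

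The 10 genes, the further gene lists and the tests were chosen with earlier results of these data known. Counts were compared with edgeR 4.0.16 (limma 3.58.1, R 4.3.3): TMM scaling, filterByExpr, quasi-likelihood test, Benjamini-Hochberg adjustment over 16222 genes, at an adjusted p-value of 0.05, with or without a log2 fold change of 1. Standard errors were computed from replicate log2 CPM (prior count 2). The test was checked on simulated counts. Ratios were tested by exact permutation. Alternatives were DESeq2 1.42.0, RLE factors, library size alone, no filter, at least 10 counts in every library, a test against a fold of 1.5, the replicate block and leaving out each library. Genes were named by a fixed rule: all members, list genes past both thresholds (up to 12) and 9 direct partners, the ferritin pseudogenes, overlapping genes and the 5 genes most like FTH1, with 5 examples added later. Cell type markers were fixed likewise. Replicate libraries differed by more than sampling noise (chi-square per degree of freedom 3.62 to 10.3).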

Additional observations from a re-analysis of the deposited data

How the results depend on the processing

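Among members, 5 rose and 2 fell at the adjusted p-value threshold. With library size alone 3 rose, and 0 members rose past both thresholds against 1 with TMM. Tested against a 1.5-fold change, 2 rose and 0 fell. Of the other iron and heme genes, 14 rose and 21 fell, which became 7 and 37 with library size alone and 4 and 3 against a fold change of 1.5. Past both thresholds, 3 rose and 3 fell, and 0 rose with library size alone. When any 1 of the 6 libraries was dropped, 4 to 5 members rose, 2 fell and 1 rose past both thresholds. For the other genes 13 to 15 rose and 16 to 22 fell, and past both thresholds 2 to 3 rose and 1 to 4 fell.

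With library size alone, the log2 fold changes of FTL (-0.11), SLC11A2 (-0.28), BLVRB (-0.22), NCOA4 (-0.28), ACO1 (-0.26) and NFE2L2 (-0.084) turned negative. Values near 0 also changed sign elsewhere. With 1 library left out, SLC11A2 ranged from -0.0053 to 0.063, BLVRA from -0.11 to 0.034, NCOA4 from -0.00086 to 0.067 and FBXL5 from -0.086 to 0.038, and BLVRA was 0.00011 with DESeq2. None of these 4 genes was called in those fits, while with library size alone all 4, and BLVRB and ACO1, passed the threshold as lower (BLVRA -0.33, FBXL5 -0.33). The FTH1 to FTL, HMOX1 to HMOX2 and TFRC to FTH1 ratios kept their direction in all alternatives run, with log2 differences of 0.82 to 0.93, 0.71 to 1.001 and -0.39 to -0.23 when 1 library was left out. The replicate block gave ratio differences of 0.88, 0.87 and -0.33, and 5 members rose and 2 fell, as without it. Same-numbered libraries did not deviate together (correlations of -0.02, 0.0038 and -0.03), so the numbers gave no pairing. TF and SLC40A1 were limited by depth.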
